A study of Mus musculus with 10 samples.

Results

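The expressed long intergenic noncoding RNAs (lincRNAs) of the mouse hippocampus were described in animals lacking Tshr, the receptor for thyroid-stimulating hormone, and in wild-type animals. A gene was taken when its deposited type was lincRNA and its mean over the 10 libraries was at least 2 FPKM (fragments scaled to gene length and library size). This rule took 126 of the 5082 lincRNA records, in a table of 52636 gene records. The genes were thus chosen by their mean level over both genotypes, and levels are given as a description, while the difference between genotypes took no part in the choice. Hippocampal mRNA was sequenced from C57BL/6 mice aged 3 months, as 5 replicates of Tshr-/- and 5 of wild type. The labels give the same strain, age and tissue for both groups and no treatment. They do not state whether a replicate was a single mouse, whether littermates were used, which part of Tshr was deleted or whether thyroid hormone was supplied, so p-values measure only the spread between these libraries.

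Long intergenic noncoding RNAs are transcripts without a known protein product that lie between coding genes. Some build nuclear bodies, some bind RNA-binding proteins or microRNAs in the cytoplasm, and others are the precursors from which microRNAs or small nucleolar RNAs are cut. Brain tissue expresses many of them, and Malat1, Meg3, Miat and the transcripts that carry miR-9 and miR-124 are well known in neurons.

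Sequences are shown first for the transcripts whose known function can be read in their letters. The most abundant of the 126 was 2900097C17Rik, which RefSeq names Norad, a cytoplasmic RNA that binds Pumilio proteins. It lies on chromosome 2, 156388065 to 156392979, minus strand (mm10). Its GENCODE vM21 transcript of 4915 bases held the letters TGTANATA, the Pumilio recognition motif, 11 times on the transcript strand, or 2.24 times per kilobase. Over all 5059 lincRNA records with a GENCODE transcript, the pooled figure was 0.127 per kilobase. The core was TGTATATA in 6 matches, TGTACATA in 3 and TGTAAATA in 2. At least 1 match was found in 24 of the 125 expressed lincRNAs with a transcript (19.2%), against 14.5% of all lincRNA records. Matches on each core are printed with the core in capitals, 5′ to 3′, at the transcript positions given.
Norad 641 to 668: agaagtcctgTGTATATAatatgaaaaa
Norad 1137 to 1164: gtaaacatgcTGTAAATAcctttttgtt
Norad 1326 to 1353: ggcttttcttTGTACATAgtgtatgtaa
Norad 2744 to 2771: agtactactaTGTATATAggggacaaat

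The transcript 1700020I14Rik, named Oip5os1 in RefSeq and also known as Cyrano, is known for a highly complementary site for miR-7, which leads to the loss of that microRNA. The letters GTCTTCC, complementary to the miR-7 seed (bases 2 to 8), occurred in it at transcript positions 762 to 768 and 2952 to 2958. At the second of these, 13 further bases in a row paired with miR-7 from its base 11 to its 3′ end. At the first, the run at that end was 2 bases. The seed match is in capitals in the site and the seed in the microRNA. GTCTTCC occurred in 26 of 125 expressed lincRNAs (20.8%) and in 11.4% of all lincRNA records, and a match alone is a description of the letters.
1700020I14Rik 2934 to 2959: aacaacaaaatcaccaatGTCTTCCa
miR-7a-5p (RefSeq, GRCm38.p6): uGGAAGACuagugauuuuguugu

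Small RNA records lay within 17 of the 126 lincRNAs. Of these, 14 held 19 microRNA records and 6 held 10 small nucleolar or small Cajal body RNA records. Some of these records overlap: Snora16a is listed more than once in Snhg12, and Mir1839 in 2900076A07Rik under both kinds. Gm3764 on chromosome 3, C130071C03Rik on chromosome 13 and Mir9-3hg on chromosome 7 each carried 1 copy of miR-9, a microRNA of neural progenitors and neurons, with the same mature 5p sequence. Mir124a-1hg and Mir124-2hg each held a record of miR-124, a microRNA of neurons, whose mature sequence is not printed here. C78859 carried miR-138-5p, known to act on dendritic spines, E130102H24Rik carried miR-101a-3p, and 4833445I07Rik carried miR-191-5p and miR-425-5p. Ftx, in the X-inactivation centre, carried miR-421 and miR-374b. Seeds are in capitals, and the sequences are from RefSeq (GRCm38.p6). The libraries measured host transcripts and not the mature microRNAs.
miR-9-5p: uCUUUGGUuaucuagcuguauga
miR-138-5p: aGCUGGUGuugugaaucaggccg
miR-101a-3p: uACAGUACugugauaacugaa
miR-191-5p: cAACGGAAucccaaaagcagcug
miR-425-5p: aAUGACACgaucacucccguuga
miR-374b-5p: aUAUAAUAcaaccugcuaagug

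The letters TGACGTCA, the cyclic AMP response element, were searched on both strands in the RefSeq promoter windows of 300 bases (GRCm38.p6), which run from 250 bases before to 50 after a start. They occurred in 5 of the 67 windows of these lincRNAs (7.46%) and in 1.79% of all 32851 windows. The 5 belonged to Meg3, Mir9-3hg, Gm3764, B230354K17Rik and 4930447M23Rik. The windows of Meg3 and Mir9-3hg are printed as examples, an imprinted transcript and a host of miR-9. The element is in capitals.
Meg3, chr12:109540746-109541045, plus strand: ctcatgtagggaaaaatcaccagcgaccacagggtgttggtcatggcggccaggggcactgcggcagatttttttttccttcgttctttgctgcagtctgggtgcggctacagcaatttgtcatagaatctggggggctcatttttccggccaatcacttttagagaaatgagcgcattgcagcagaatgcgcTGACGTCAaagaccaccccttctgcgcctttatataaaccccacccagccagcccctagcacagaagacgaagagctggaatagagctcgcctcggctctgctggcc
Mir9-3hg, chr7:79499776-79500075, plus strand: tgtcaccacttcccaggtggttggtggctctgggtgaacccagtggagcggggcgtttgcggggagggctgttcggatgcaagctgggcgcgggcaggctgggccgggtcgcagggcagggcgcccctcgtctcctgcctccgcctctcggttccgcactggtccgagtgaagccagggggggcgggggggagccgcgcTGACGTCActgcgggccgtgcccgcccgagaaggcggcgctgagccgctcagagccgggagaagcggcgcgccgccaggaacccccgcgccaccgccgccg

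The libraries held 23899650 to 33529811 reads, rebuilt from the FPKM values, and the 126 lincRNAs took 0.536 to 0.797% of them. Tshr was near the detection limit, with 7 reads in all from Tshr-/- and 32 from wild type, and Tshr-/- libraries 1, 2 and 3 had none, which allows up to 0.0190 FPKM at 3 reads (counting error only). Tshr-/- libraries 4 and 5 had 5 and 2 reads, and wild-type libraries 1 to 5 had 9, 12, 7, 2 and 2, so that single libraries of the genotypes overlapped and the library labelled Tshr-/- 4 had more Tshr reads than wild-type libraries 4 and 5. Summed markers of hippocampal neurons lay between 680 and 1021 FPKM in Tshr-/- and between 936 and 1274 FPKM in wild type. Of that list of 10 genes, 7 were lower in Tshr-/- at an unadjusted limma p below 0.05 (8.38% of all genes tested were). Of the same 10, 0 were called and 0 were at 0 in all libraries. Markers of thalamus and habenula, tissue beside the hippocampus, summed to 53.0 to 317 FPKM in Tshr-/- and 39.0 to 165 FPKM in wild type, and were high in Tshr-/- libraries 1 and 2 and wild-type libraries 2 and 5. Choroid plexus markers reached 2630 FPKM in Tshr-/- library 4 and 33.8 to 139 FPKM in the other 9. Interneuron markers summed to 377 to 631 FPKM in Tshr-/- and 552 to 628 FPKM in wild type. Of the 7 in that list, 3 were lower and 0 higher in Tshr-/- at an unadjusted limma p below 0.05, and 0 were called. In such tissue samples, fewer cells of a type and less RNA per cell cannot be told apart.

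Levels fell off steeply across the lincRNAs. Of the 126, 80 had a mean from 2 up to 5 FPKM, 27 from 5 to 10, 13 from 10 to 50, 3 from 50 to 100 and 3 above 100. The median was 3.77 FPKM, against 6.31 FPKM over the 13019 protein-coding genes tested. Those coding genes were taken from a mean of 0.5 FPKM upward and the lincRNAs from 2, so the 2 medians have unlike floors. 2900097C17Rik, Malat1 and 6330403K07Rik together made up 36.3 to 39.9% of the summed FPKM of the 126 in each library. The gene records were shorter than most, with a median of 1627 bases against 3777 over all genes tested. Just inside the threshold of 2 stood 4930447M23Rik, 4930578M01Rik and A330048O09Rik at 2.06, 2.06 and 2.05 FPKM, and just outside it Gm20753, 2810049E08Rik and 4930570G19Rik at 1.98, 1.92 and 1.91 FPKM. The lincRNAs Mirg (1.65 FPKM) and Xist (at most 0.0242 FPKM in any library) were below it, and the records Gm42418 and AY036118 were listed at 0 in every library. Rian, Snhg11 and Peg13 are listed under other types and were not counted.

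**Figure D1:**
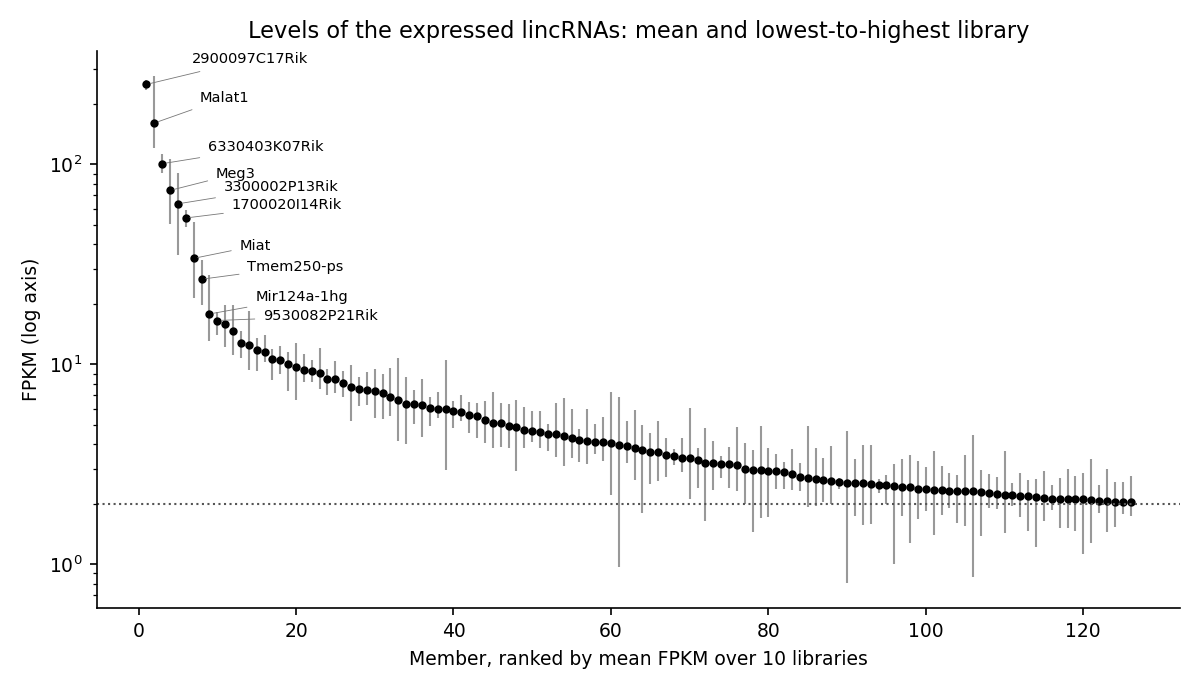
Mean FPKM (points, log axis) of each of the 126 lincRNAs against its rank, with a line from its lowest to its highest library of 10 and a dotted line at the threshold of 2 FPKM. Of these, 3 stood above 100 FPKM, and 80 lay between 2 and 5.

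The deposited type is not settled for every record. RefSeq held 80 of the 126 under the same symbol and called 74 of them lncRNA and 5 protein-coding, namely 6330403K07Rik, Tmem250-ps, Dbpht2, 1810058I24Rik and Gm6712. By synonym, D930016D06Rik and 4930516B21Rik matched the protein-coding RefSeq genes Thoc2l and Acvr2b. That match did not require the same strand, and neither lincRNA overlapped a deposited protein-coding record, so it does not show that they are coding. GENCODE vM21 held 125 of the 126 and typed 117 as lincRNA. It too typed 6330403K07Rik, among the 3 most abundant, as protein-coding. The span of 66 overlapped no other gene record, and 18 overlapped a protein-coding record, 12 of them on the opposite strand. The library kit does not mark strand, per the labels' protocols, so reads of these 12 cannot be told apart from those of the coding gene where exons overlap. For the 6 on the same strand, a strand mark would not separate the reads either. The coding record over C230057M02Rik, 2810455O05Rik, Gm45353 and Gm27030 was Gm20388, whose mean was 0 FPKM in both genotypes.

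Across the 2 genotypes, no expressed lincRNA passed the test. The limma fit on log2(FPKM + 0.1), with p-values adjusted by the Benjamini-Hochberg method over all 15471 genes with a mean of at least 0.5 FPKM, called 0 of the 126 at an adjusted p below 0.05. It called 0.0129% of all genes tested, which is 2 genes, Penk, the enkephalin precursor, and Cyp26b1, an enzyme that breaks down retinoic acid, both lower in Tshr-/- and named after their values were seen. At an unadjusted p below 0.05, 9 lincRNAs were lower (7.14%, against 8.38% of all genes) and 5 were higher (3.97%, against 4.65%). Limma voom on the rebuilt reads also called 0, with counts of 9 lower and 5 higher. The groups of libraries did not overlap for 0 of the 126 in either direction, against 1.76% of all genes for lower and 0.911% for higher. The median log2 difference, Tshr-/- minus wild type, was -0.0173 for the lincRNAs and -0.0105 for all genes, and 71 of the 126 lay below 0 (56.3%, against 53.3%).

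**Figure D2:**
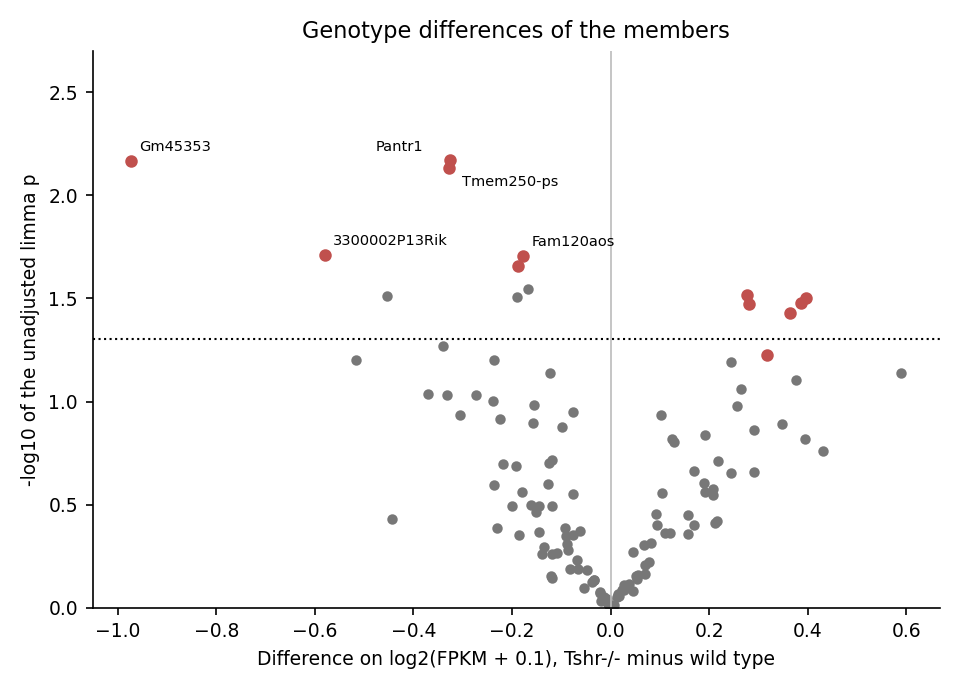
Log2 difference, Tshr-/- minus wild type, against -log10 of the unadjusted limma p for the 126 lincRNAs, with a dotted line at p of 0.05. Red points are the 6 smallest p in each direction, and the adjusted p was 0.226 or more for every point.

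The spread between libraries was wide for many of these transcripts. The SD of log2 values over the 10 libraries had a median of 0.239 for the 126, against 0.134 for the 10343 protein-coding genes with a mean of at least 2 FPKM. Those genes were not matched to the 126 in level or length. Median length was 1627 bases for the 126 and 4329 bases over all protein-coding genes tested. Wild-type library 4 was also the highest library for 38 of the 126. 2900097C17Rik had the smallest SD of the 126, with 251, 245, 249, 241 and 236 FPKM in Tshr-/- libraries 1 to 5 and 265, 262, 263, 252 and 247 FPKM in the wild-type libraries. Its highest library was 1.13 times its lowest, the groups overlapped, and the log2 difference was -0.08 ± 0.04 (SE, adjusted p = 0.487). 1700020I14Rik also varied little, at 54.8 ± 4.38 FPKM (SD, n = 5) in Tshr-/- and 53.1 ± 4.36 FPKM in wild type, a log2 difference of 0.05 ± 0.07. 6330403K07Rik was at 105 ± 8.56 and 97.1 ± 2.16 FPKM (0.10 ± 0.06), and 9530082P21Rik at 15.9 ± 1.22 and 17.3 ± 0.817 FPKM (-0.12 ± 0.06), neither of them called. At the other end stood Gm44866, Gm45353, Gm26782, Mir124-2hg and Gm31294. Gm44866 had 6.88, 5.65, 0.972, 4.11 and 1.39 FPKM in Tshr-/- and 3.29 to 5.46 FPKM in wild type, so that the low values were Tshr-/- libraries 3 and 5. Mir124-2hg, a host of miR-124, had its 2 highest values, 5.96 and 7.30 FPKM, in Tshr-/- libraries 1 and 2, the 2 libraries highest in thalamic markers.

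Among transcripts of nuclear bodies, Malat1 of the nuclear speckles had 129, 163, 166, 167 and 134 FPKM in Tshr-/- and 145, 147, 163, 277 and 121 FPKM in wild type. The groups overlapped and wild-type library 4 stood far above the rest. The log2 difference was -0.12 ± 0.19 (adjusted p = 0.829). Miat, a nuclear RNA of neurons, had 31.3, 29.4, 39.7, 36.3 and 38.8 FPKM in Tshr-/- and 28.8, 21.6, 33.8, 51.5 and 27.6 FPKM in wild type, again with wild-type library 4 highest, and its log2 difference was 0.16 ± 0.20 (adjusted p = 0.770). Neat1, the scaffold of paraspeckles, stood lower at 5.17 ± 1.48 and 5.06 ± 0.742 FPKM. Of the 13 genes in the list of nuclear body transcripts and their protein partners, 0 were called. At an unadjusted p below 0.05, 1 was lower (8.38% of all genes were) and 0 higher (4.65%).

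Meg3, the maternally expressed transcript of the imprinted Dlk1-Dio3 cluster, lies on chromosome 12, 109541001 to 109571726, plus strand. It had 85.7, 88.2, 81.6, 70.8 and 74.8 FPKM in Tshr-/- and 50.3, 50.3, 63.3, 106 and 69.9 FPKM in wild type. Every Tshr-/- library was above 4 of the 5 wild-type libraries, and wild-type library 4 was above all. The log2 difference was 0.29 ± 0.18 (adjusted p = 0.518) with all libraries and 0.47 ± 0.11 (adjusted p = 0.191) without wild-type library 4. Rian of the same cluster was at 21.98 ± 2.91 and 21.01 ± 2.03 FPKM, and 0 of the cluster's 7 tested genes were called, nor was any past an unadjusted p of 0.05.

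**Figure D3:**
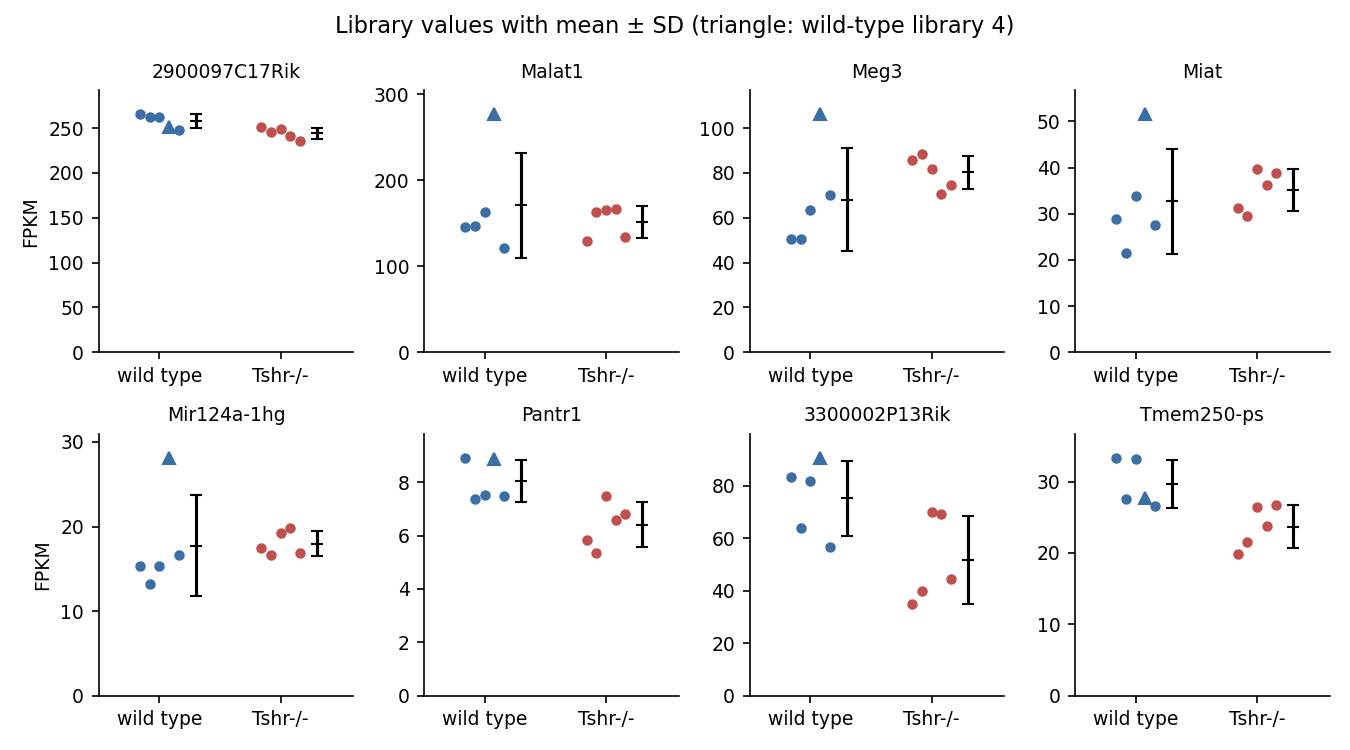
FPKM in each library for 8 of the lincRNAs, with the mean and SD (n = 5) beside the points and wild-type library 4 drawn as a triangle. That library was the highest of 10 for Malat1, Meg3, Miat, Mir124a-1hg and 3300002P13Rik, and not for 2900097C17Rik, Pantr1 or Tmem250-ps.

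Of the microRNA hosts, Mir124a-1hg had 16.6 to 19.8 FPKM in Tshr-/- and 15.4, 13.1, 15.4, 28.1 and 16.6 FPKM in wild type, a log2 difference of 0.07 ± 0.17. The 3 hosts of miR-9 did not share 1 pattern. Mir9-3hg had 4.64, 4.11, 6.11, 5.35 and 5.78 FPKM in Tshr-/- and 4.16, 4.29, 3.81, 4.94 and 4.03 FPKM in wild type, a log2 difference of 0.28 ± 0.11 (adjusted p = 0.340). Its 3 highest libraries were all Tshr-/-. Gm3764, named after its values were seen, stood at 13.3 ± 1.88 and 11.8 ± 3.78 FPKM (log2 difference 0.21 ± 0.18), and C130071C03Rik, at 8.31 ± 0.917 and 8.53 ± 1.13 FPKM (-0.03 ± 0.10). Differences between the hosts were not tested. In the list of microRNA hosts, 0 of 7 tested genes were called. At an unadjusted p below 0.05, 0 were lower (8.38% of all genes were) and 1 higher (4.65%).

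Hosts of small nucleolar RNAs, the guides of RNA modification, and Ftx were also named after their values were seen. Snhg12, whose span held 5 small nucleolar RNA records, had 7.10, 7.48, 6.19, 7.60 and 6.93 FPKM in Tshr-/- and 8.07, 8.63, 7.83, 7.43 and 7.68 FPKM in wild type, a log2 difference of -0.17 ± 0.07 (adjusted p = 0.333). Epb41l4aos was at 11.9 ± 0.876 and 13.6 ± 1.29 FPKM (-0.19 ± 0.08, adjusted p = 0.340). Snhg6 and Snhg20 had log2 differences of 0.02 ± 0.12 and 0.02 ± 0.10. In the whole list of small RNA hosts, 0 of 14 tested genes were called. At an unadjusted p below 0.05, 2 were lower (8.38% of all genes were) and 0 higher (4.65%). Ftx was at 2.57 ± 0.203 and 2.83 ± 1.21 FPKM (-0.05 ± 0.21).

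The 6 lincRNAs with the smallest p among those lower in Tshr-/- were Pantr1, Gm45353, Tmem250-ps, 3300002P13Rik, Fam120aos and 9330102E08Rik. Pantr1, a transcript of neural progenitors and neurons that starts beside the transcription factor gene Pou3f3, had 5.83, 5.34, 7.47, 6.60 and 6.81 FPKM in Tshr-/- and 8.92, 7.36, 7.54, 8.87 and 7.48 FPKM in wild type. The groups overlapped only through Tshr-/- library 3 and wild-type library 2, whose values were 7.47 and 7.36 FPKM. The log2 difference was -0.33 ± 0.10 with an adjusted p of 0.226, the smallest of the 126. Over the 22 alternatives run, its adjusted p ranged from 0.142 to 0.486. The list of neural developmental noncoding transcripts that holds Pantr1 also has records deposited under other types. Of its 9 tested genes 0 were called, with 3 lower (8.38% of all genes were) and 0 higher at an unadjusted p below 0.05. The 3 were Pantr1 and the antisense RNAs Dlx6os1 and Dlx1as. The part of interneuron cells in this count was not tested. Gm26917, listed with the records linked to ribosomal RNA, was at 6.80 ± 1.64 and 8.53 ± 1.23 FPKM (-0.34 ± 0.16, adjusted p = 0.390).

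Tmem250-ps (chromosome 2, 26136814 to 26140521, minus strand) had 19.9, 21.5, 26.4, 23.8 and 26.7 FPKM in Tshr-/- and 33.3, 27.5, 33.2, 27.8 and 26.6 FPKM in wild type, a log2 difference of -0.33 ± 0.10 (adjusted p = 0.234). Its span overlaps 1 noncoding record on the opposite strand, from which reads cannot be told apart without strand. Its symbol is that of a pseudogene, and whether reads were shared with a related copy was not tested. 3300002P13Rik had 35.1, 39.8, 70.0, 69.3 and 44.3 FPKM in Tshr-/- and 83.5, 63.9, 81.8, 90.7 and 56.7 FPKM in wild type, a log2 difference of -0.58 ± 0.21 (adjusted p = 0.298). It lies at 3421665 to 3423445 on chromosome 7, between Cacng8 (3390683 to 3415648), an auxiliary subunit gene of AMPA receptors, and Cacng6 (3424195 to 3435667). Gm45353 had the largest log2 difference in size, -0.97 ± 0.29 (adjusted p = 0.227), on a record of 252 bases with 6 to 29 reads per library. Fam120aos was at 10.8 ± 0.472 and 12.3 ± 1.1 FPKM, and 9330102E08Rik at 5.46 ± 0.548 and 6.21 ± 0.246 FPKM.

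Tshr-/- libraries 1 and 2 held the 2 lowest values of Pantr1, Tmem250-ps and 3300002P13Rik, and these were the 2 libraries highest in thalamic markers and lowest in hippocampal neuron markers. With the 4 libraries highest in thalamic markers left out, a comparison of 3 against 3 chosen after seeing the data, the log2 differences were -0.27 for Pantr1, -0.29 for Tmem250-ps and -0.51 for 3300002P13Rik. With the thalamic marker mean as a covariate they were -0.24, -0.25 and -0.40. In both settings 0 of the 126 were called.

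In the other direction, the smallest p belonged to Mir9-3hg, A230006K03Rik, Gm17586, CAAA01180111.2, Gm28151 and AI480526. A230006K03Rik, on chromosome 7 987777 bases from its nearest coding gene, Snrpn, had 3.13, 3.30, 2.18, 1.86 and 3.22 FPKM in Tshr-/- and 1.69 to 2.25 FPKM in wild type, a log2 difference of 0.40 ± 0.16 (adjusted p = 0.340), with Tshr-/- libraries 3 and 4 within the wild-type range. Gm17586, which starts 168 bases from the transcription factor gene Mafg, was at 5.04 ± 1.24 and 3.77 ± 0.513 FPKM (0.39 ± 0.16, adjusted p = 0.345), while Mafg stood at 16.8 ± 1.09 and 16.9 ± 0.949 FPKM. Gm28151 lies inside the span of the zinc transporter gene Slc39a10 and was at 2.59 ± 0.292 and 2.03 ± 0.477 FPKM. CAAA01180111.2 was at 7.52 ± 1.28 and 6.14 ± 0.724 FPKM, and AI480526 at 2.34 ± 0.237 and 1.90 ± 0.515 FPKM.

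Of the 126, 34 start head to head with a protein-coding gene, on opposite strands and within 1000 bases. Pairs with overlapping spans were included. In these, Gm10419, M5C1000I18Rik, 2310069G16Rik, Gm2464, Gm26782 and B130046B21Rik overlap their partners, and reads cannot be told apart where exons overlap. Of these 34 lincRNAs, 0 were called. At an unadjusted p below 0.05, 4 were lower (11.8%, against 8.38% of all genes) and 1 was higher (4.65% of all genes were). Of their 34 coding partners, 0 were called, and 11 were lower (32.4%, against 8.38% of all genes and 9.17% of protein-coding genes) and 1 was higher. The median log2 difference was 0.0135 for the lincRNAs and -0.134 for the partners. Pou3f3, a transcription factor of upper cortical layers and hippocampus, was at 27.4 ± 6.12 FPKM in Tshr-/- and 41.0 ± 5.05 FPKM in wild type (log2 difference -0.60 ± 0.14, adjusted p = 0.176), beside -0.33 for Pantr1.

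Other pairs were named after their values were seen. Grasp, a scaffold protein gene of synapses, was at 26.3 ± 2.94 and 37.99 ± 5.31 FPKM (-0.52 ± 0.11, adjusted p = 0.136), beside -0.27 ± 0.15 for A330009N23Rik, which starts 86 bases away. Cacng8 was at 72.3 ± 14.3 and 98.6 ± 16.8 FPKM (-0.45 ± 0.15, adjusted p = 0.259), beside -0.13 ± 0.20 for Gm44257. Ddn, the gene of the dendritic protein dendrin, had a log2 difference of -0.45 ± 0.19 beside -0.31 ± 0.18 for B130046B21Rik, and the spans of these 2 overlap. Eno3, a muscle enolase gene, had 0.47 ± 0.13 beside 0.22 ± 0.16 for Gm12319. The pairs just named had the same sign on both sides, but other pairs did not. Setd1b had -0.15 ± 0.09 beside 0.32 ± 0.15 for AI480526, and Ube2q1 -0.19 ± 0.07 beside 0.01 ± 0.08 for 4632404H12Rik. Glrx5 had -0.18 ± 0.07 beside 0.03 ± 0.11 for AC140477.3. Whether a lincRNA and its partner differed in their response was not tested, nor was the part of the lower hippocampal neuron markers of Tshr-/- in the partners' count.

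**Figure D4:**
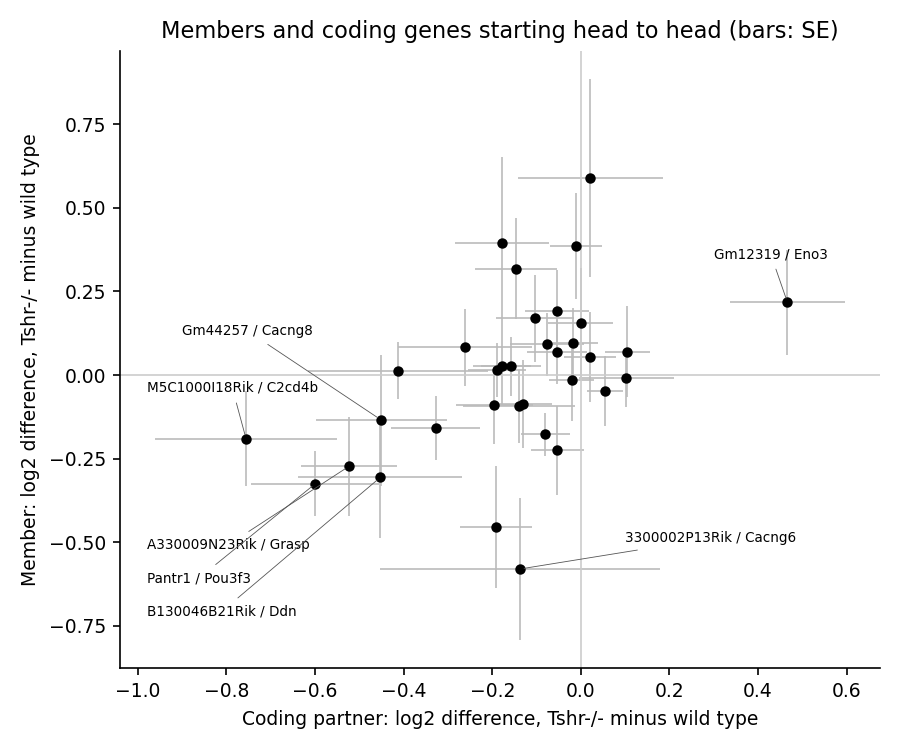
Log2 difference, Tshr-/- minus wild type, of 34 lincRNAs (vertical axis) against that of the coding gene that starts head to head with each (horizontal axis), with bars of 1 SE. The partners' median was -0.134 and the lincRNAs' 0.0135, and 11 partners were lower at an unadjusted p below 0.05.

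Wild-type library 4 stood apart for these and other noncoding records, which was noticed in the data. It held the highest of the 10 values for 38 of the 126 lincRNAs (30.2%), against 12.5% of all genes tested and 11.0% of protein-coding genes. The high value also raises the mean by which the 126 were chosen. Over all 402 lincRNAs with a mean of at least 0.5 FPKM the share was 24.9%, over antisense RNAs 24.4%, over processed transcripts 23.8% and over processed pseudogenes 10.1%. It was 33.0% over records of the type TEC, 27.9% over small nucleolar RNAs and 25% over small nuclear RNAs. In this library 20 of the 126 were more than 0.5 on the log2 scale above the mean of the other 9 (15.9%, against 5.53% of all genes and 1.74% of protein-coding genes), and 1 was as far below it. It held 24900189 reads, within the range of the others, and the lowest sum of thalamic markers, 39.0 FPKM. The part of thalamic tissue in this was not tested. Of the other libraries, Tshr-/- library 3 held the highest value of 7.94% of the lincRNAs (5.24% of all genes), wild-type library 2 of 3.17% (6.37%), wild-type library 3 of 4.76% (10.7%) and wild-type library 1 of 11.9% (13.3%). Tshr-/- libraries 1, 2, 4 and 5 held 10.3, 11.1, 7.94 and 11.9%, against 10.8, 12, 11 and 11.8% of all genes.

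**Figure D5:**
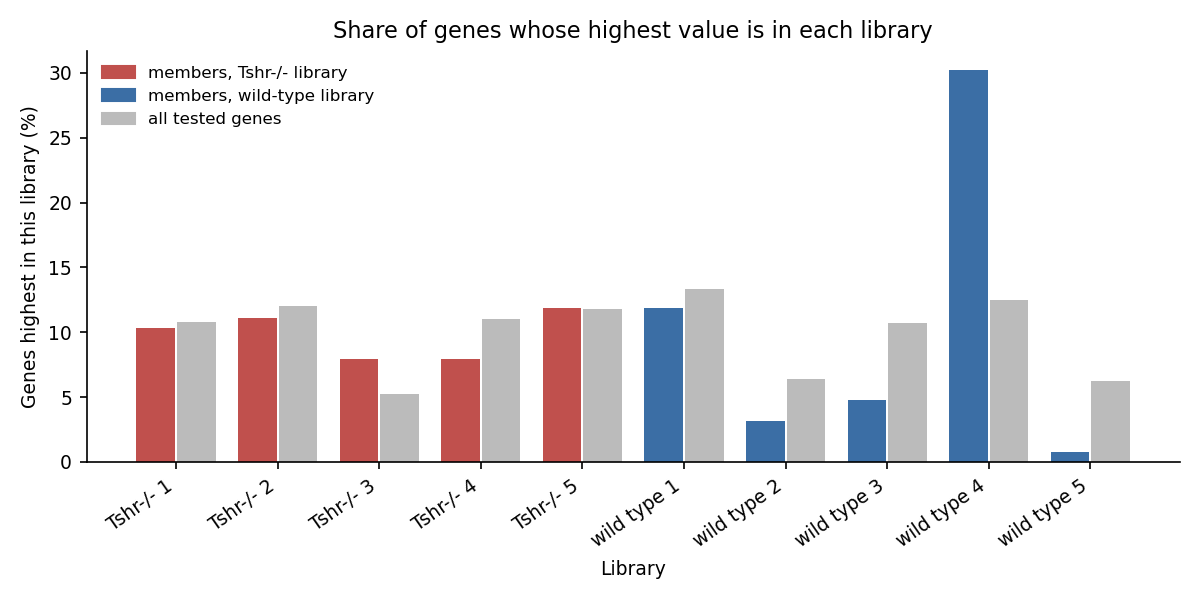
Percent of the 126 lincRNAs (coloured bars) and of all 15471 genes tested (grey bars) whose highest value lies in each of the 10 libraries. Wild-type library 4 held the highest value of 30.2% of the lincRNAs and of 12.5% of all genes, and wild-type library 5 of 0.794% and 6.26%.

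The comparison of the genotypes changed without that library. The library was singled out because it was high for these transcripts, so leaving it out lowers their wild-type means, and the direction of the change was fixed by that choice. With it left out, 12 of the 126 were higher in Tshr-/- at an unadjusted p below 0.05 (5% of all genes were) and 7 were lower (7.98% of all genes), against 5 and 9 with it, and 0 were called. Groups did not overlap for 5 higher lincRNAs, Meg3, C78859, Gm45619, Gm21781 and AI480526 (2.18% of all genes), and for 1 lower, Snhg12 (2.84% of all genes). C78859, the host of miR-138, had 4.10, 3.86, 4.06, 4.62 and 3.56 FPKM in Tshr-/- and 2.95, 2.63, 3.53, 5.93 and 3.09 FPKM in wild type. Miat had a log2 difference of 0.34 ± 0.13 (adjusted p = 0.344) without it, and Mir124a-1hg 0.25 ± 0.08 (adjusted p = 0.267).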

How the data were processed

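Per the submitters' processing notes, HISAT2 2.0.5, featureCounts 1.5.0-p3 and the genome build mm10 were used. The gene annotation's release was, in the sources used here, not given. The authors deposited FPKM values per gene with its length, coordinates and type. Within a library, 100% of the products of FPKM and length above 0 were whole multiples of the same value (tolerance 0.01), and these multiples served as rebuilt reads. The library size implied by the FPKM values was not the sum of these reads. It was 30634986 against 32397612 reads in wild-type library 1, and 29444289 against 27822135 in Tshr-/- library 2. The reason was not tested.

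Genes with a mean of at least 0.5 FPKM were tested on log2(FPKM + 0.1), a scale that understates changes of low genes, with limma 3.58.1 in R 4.3.3 (2 genotypes, empirical Bayes with a trend, Benjamini-Hochberg adjustment over all genes tested). All 126 lincRNAs passed that filter. The steps were tested on simulated data.

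The members and gene lists were chosen with earlier results of these data known. Named are the 10 highest means, the 6 smallest p in each direction with their nearest coding genes, known lincRNAs, the 5 largest SDs and those beside the threshold. Further lincRNAs, among them C78859, E130102H24Rik and 4833445I07Rik, were named after their values were seen. Alternatives were pseudocounts, filters, scalings, variance models (robust with statmod 1.5.0), voom, a replicate block, a thalamic covariate, other member rules and each library left out. Leaving out 4 libraries was chosen after seeing the data. Sequences and annotation came from RefSeq (GRCm38.p6) and GENCODE vM21.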

Additional observations from a re-analysis of the deposited data

Results flagged for a closer look

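In 5 named lincRNAs, wild-type library 4 lay so far above the other 4 wild-type libraries that its gap exceeded the Dixon 95% limit (0.71 of the group's range for 5 samples). Malat1 was at 277 FPKM there, against 121 to 163 in the others. Mir124a-1hg was at 28.1 FPKM against 13.1 to 16.6, and Gm3764 at 18.4 FPKM against 9.36 to 11.5. C78859 was at 5.93 FPKM against 2.63 to 3.53, and Ftx at 4.93 FPKM against 1.94 to 2.59. All of these but Malat1 host microRNA records, as do 14 of the 126 lincRNAs. Gm3764, C78859 and Ftx were named after their values were seen, so this share follows in part from the naming. Chance flags about 1 in 20 groups, and over all 126 lincRNAs 15 of 252 groups were flagged (5.95%), 6 of them through wild-type library 4.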

How the results depend on the processing

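The count of lincRNAs called was 0 in all 25 alternatives, and their median log2 difference lay between -0.0496 and 0.00449. Over all genes tested, the count of 2 became 14 with a pseudocount of 0.01, 4 without a filter, 13 with a mean of at least 1 FPKM, 13 with median-ratio scaling, 4 with quantile normalization, 3 with a pseudocount of 1, 1 without a variance trend, 13 with robust empirical Bayes, 8 with the thalamic covariate, 3 with 4 libraries left out and 0 to 9 with each library left out in turn. Same-numbered libraries deviated together with correlations of -0.0651 to 0.296, so the numbers were not taken as pairs. With the replicate block, 0 lincRNAs and 3 of all genes were called. None of 1012 values of the 46 named lincRNAs was called, and 36 values in 13 of them changed sign. With the covariate these were 1700020I14Rik (-0.0067), 4833445I07Rik (0.058), C130071C03Rik (0.042), Ftx (0.045) and Gm31294 (0.15). With 4 libraries left out they were 4833445I07Rik (0.077), 4930447M23Rik (0.069), Gm31294 (0.028) and Mir124a-1hg (-0.016). 2900097C17Rik changed with quantile normalization (0.023), and Neat1 with a pseudocount of 1 (0.00277) and median-ratio scaling (0.011). With each library left out, values ran from -0.12 to 0.045 for 4833445I07Rik, -0.083 to 0.039 for C130071C03Rik, -0.16 to 0.16 for Ftx, -0.36 to 0.090 for Gm31294, -0.25 to 0.013 for Gm44257, -0.23 to 0.072 for Malat1, -0.023 to 0.25 for Mir124a-1hg, -0.13 to 0.093 for Neat1, -0.025 to 0.095 for Snhg20 and -0.086 to 0.075 for Snhg6. The causes were not tested. Low reads limit short records such as Gm45353.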
